A study of Ovis aries with 36 samples.

Results

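The cytosolic ribosomal protein genes encode the protein components of the small (40S) and large (60S) subunits of the ribosome that translates nuclear-encoded mRNAs. They were taken by symbol: names beginning with RPS or RPL followed by a number and at most one further letter from A, X, Y and L before any last digits, together with RPLP0, RPLP1, RPLP2 and RPSA, and without the ribosomal S6 kinases. The rule found 80 genes among the 35223 rows of the table, and no expression value was used in it. Of these, 78 passed the filter on low counts that left 22488 genes for testing.

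A ribosome needs nearly all of its proteins in equal numbers, and in mammals their mRNAs carry a 5′ terminal oligopyrimidine (TOP) motif through which translation of the whole class responds to the growth-regulating kinase complex mTORC1. Ribosomal proteins that are not built into a subunit are degraded or, for a few of them, bind MDM2 and so stabilise p53 in human and mouse cells. The rumen epithelium takes up the volatile fatty acids (VFAs) that microbes release from feed, and it grows when grain replaces forage.

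The cells were cultured sheep ruminal epithelial cells, kept in medium with the VFA mixture of either a grain diet (Grain-VFAs) or a hay diet (Hay-VFAs). The Grain medium held 71.1 mM acetate, 20.1 mM propionate, 16 mM butyrate, 1.7 mM valerate, 1.1 mM isobutyrate and 5.3 mM isovalerate, given as 115.78 mM VFAs in total. The Hay medium held 60.8 mM acetate, 14.6 mM propionate, 9.2 mM butyrate, 1.2 mM valerate, 1 mM isobutyrate and 3 mM isovalerate, given as 89.79 mM in total. Both media were set to pH 7.2. All wells, in both groups, had first been synchronised with 100 nM dexamethasone, without serum, over 2 h. Cells were harvested 24, 28, 32, 36, 40 and 44 h into the VFA media, called T0, T4, T8, T12, T16 and T20, giving 36 libraries, 3 per medium at each time. Whether those 3 are separate animals or cultures is not in the labels, so p-values measure the spread between these libraries, which may be technical. The series has no medium without VFAs, and the mixtures differ in every acid at once, so total dose and composition cannot be told apart.

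Library totals ranged from 52.4M to 65.3M counts in Grain and from 55.1M to 68.1M in Hay. Of the epithelial markers, KRT14 had a median of 194 CPM in Grain and 120 CPM in Hay, KRT8 34.6 CPM in Grain and 86.9 CPM in Hay, and CDH1 44.5 CPM in Grain and 66.0 CPM in Hay, where CPM is the per-library count rate after TMM scaling. Mesenchymal mRNAs were abundant in all libraries, with VIM at a median of 13235 CPM in Grain and 6394 CPM in Hay. Of 11 epithelial markers tested, 3 were higher and 8 lower in Grain, with summed levels of 348 to 769 CPM in Grain and 509 to 602 CPM in Hay. Of 12 fibroblast and mesenchymal markers 6 were higher and 6 lower, with sums of 76902 to 130539 CPM in Grain and 68835 to 93485 CPM in Hay. Of 6 smooth muscle markers 5 were higher and 1 lower, with sums of 414 to 1036 CPM in Grain and 204 to 1052 CPM in Hay. Immune markers summed to 3.87 to 5.68 CPM in Grain and 5.37 to 7.73 CPM in Hay, and endothelial markers to 5.52 to 9.37 CPM in Grain and 6.30 to 10.1 CPM in Hay, with CD3E and CDH5 at 0 in some libraries. The part of these cell type markers in the results on ribosomal protein genes was not tested. In such bulk samples, fewer cells of a type and less RNA per cell cannot be told apart.

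Ribosomal protein mRNAs were higher in the Grain medium almost throughout the set. Their counts made up 5.44% ± 0.164 of all counts in Grain libraries and 4.01% ± 0.213 in Hay libraries (SD, n = 18 each), a ratio of 1.35. The Grain libraries ranged from 5.13% to 5.77% and the Hay libraries from 3.74% to 4.47%, so the media did not overlap. The highest Hay share came from T16 replicate 3, and the Hay mean without it was 3.99%. Summed TMM-scaled levels were 53346 to 63029 CPM in Grain and 34529 to 44075 CPM in Hay, a ratio of means of 1.47. The 40S genes gave 40.3% ± 0.280 of the members' counts in Grain and 39.7% ± 0.508 in Hay. Other abundant RNAs moved with the medium: mitochondrially encoded mRNAs took 1.11% ± 0.171 of counts in Grain and 3.09% ± 0.194 in Hay. With these and the fibronectin gene FN1 left out of the totals, the ribosomal protein share was 5.93% in Grain and 4.43% in Hay.

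**Figure D1:**
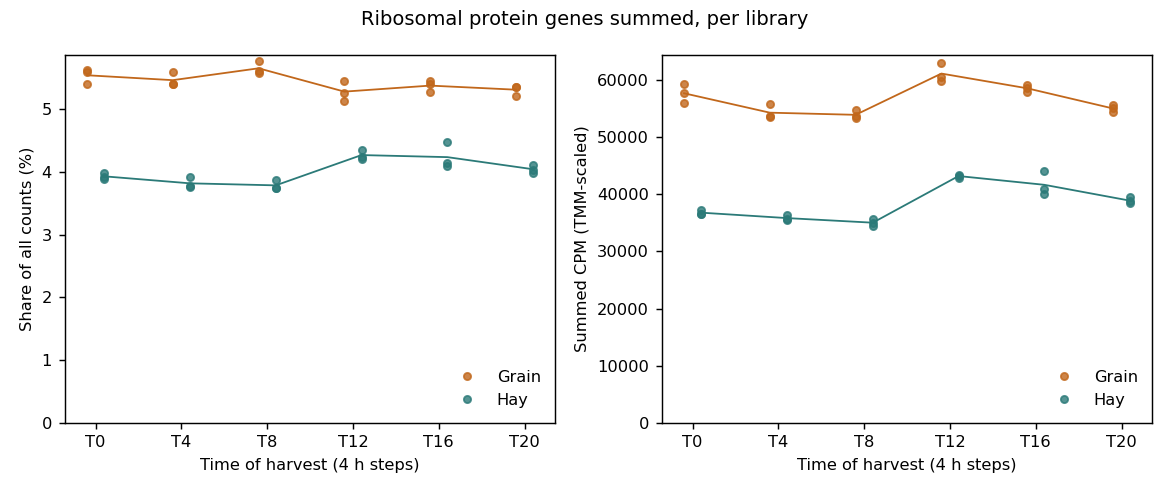
Summed ribosomal protein genes in each library against the time of harvest, as a share of all counts in percent (left) and as TMM-scaled CPM (right); points are libraries, lines join the means of 3, Grain is orange and Hay teal. All Grain libraries lie above all Hay libraries on both scales, and the Grain course differs in shape between the scales.

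Averaged over the 6 time points, 76 of the 78 tested genes were higher in Grain by edgeR's quasi-likelihood test (Benjamini-Hochberg adjusted over all genes, threshold 0.05), where 37.9% of all tested genes were. A single gene, RPL7L1, was lower, against 43.9% of all tested genes, and RPL26L1 was not called. Ribosomal protein genes are abundantly expressed, and among the 5982 genes with at least 30 CPM, a floor set after values had been seen, 58% were higher in Grain. The median log2 fold change was 0.56 over the ribosomal protein genes, -0.07 over all tested genes and 0.13 over genes of at least 30 CPM. Of the 78 genes, 71 had every Grain library above every Hay library, where 15.4% of all tested genes did. For 71 genes the rise exceeded 1.2-fold by edgeR's glmTreat, where 26% of all tested genes did. The changes were mostly moderate: 4 genes reached 2-fold, and 52 lay between 0.3 and 0.7 on the log2 scale.

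By subunit, all 32 tested 40S genes were higher, with a median log2 fold change of 0.59 and a range of 0.09 to 1.00, although the lowest of them, RPS27L, was not higher when library totals replaced TMM scaling. Of 46 tested 60S genes, 44 were higher, with a median of 0.54 and a range of -0.24 to 1.29. The remaining 2 genes of the 80 did not pass the filter. RPL10L, known from mouse and human as a testis paralog of RPL10, had 0 to 1 counts per library in Grain and 0 to 3 in Hay. RPL3L, the striated muscle paralog of RPL3, had 0 to 11 counts in Grain and 0 to 8 in Hay.

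**Figure D2:**
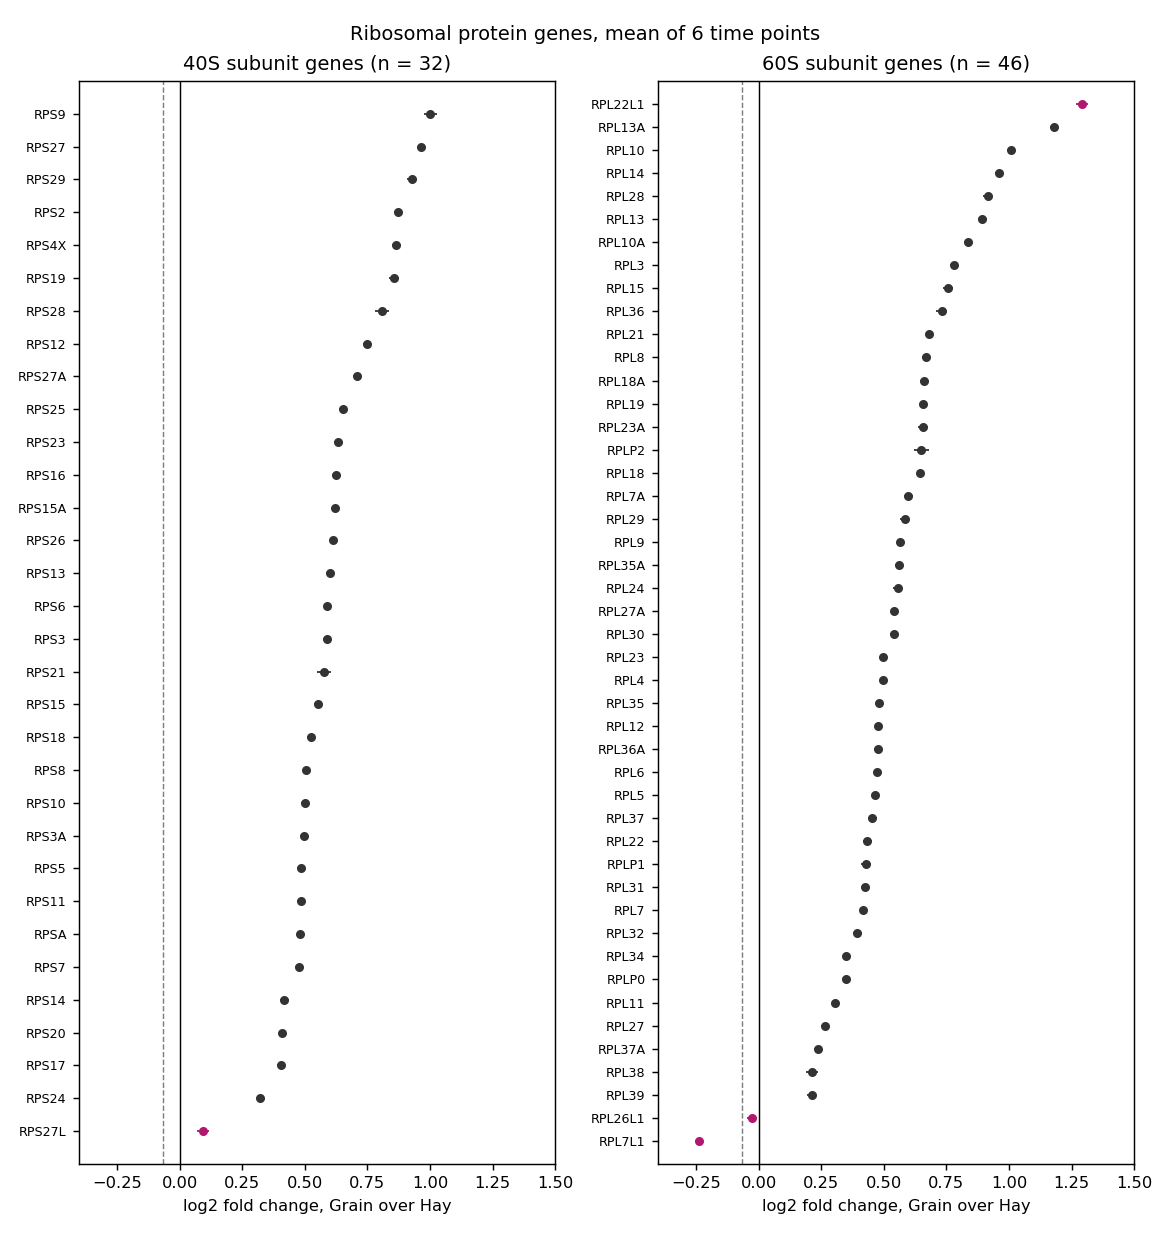
Log2 fold change of each of 78 ribosomal protein genes, Grain over Hay, averaged over 6 time points, for 40S genes (left) and 60S genes (right); bars are standard errors, magenta marks secondary paralogs, and the dashed line is the median of all tested genes at -0.07. RPL22L1 stands highest at 1.29 and RPL7L1 lowest at -0.24, with most genes between.

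The largest change was in RPL22L1, a paralog of the 60S protein RPL22 that can take its place in the ribosome. Its lowest, median and highest levels were 134, 160 and 189 CPM in Grain and 40.7, 63.4 and 105 CPM in Hay. The media did not overlap, and the log2 fold change was 1.29 ± 0.024 (SE; edgeR adjusted p = 1.68e-33). RPL13A, which in human cells also leaves the ribosome to repress inflammatory mRNAs, had 673, 754 and 872 CPM in Grain and 265, 329 and 438 CPM in Hay. Its log2 fold change was 1.18 ± 0.017 (edgeR adjusted p = 6.91e-37). RPL10, which joins the 60S subunit late and lies near the peptidyl transferase centre, had 1032, 1139 and 1346 CPM in Grain and 478, 575 and 711 CPM in Hay. It changed by 1.01 ± 0.015 on the log2 scale (edgeR adjusted p = 4.44e-37), again with no overlap of the media.

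Among 40S genes the largest changes were in RPS9 and RPS27. RPS9, one of the first proteins to bind 18S rRNA, had 140, 162 and 197 CPM in Grain and 63.1, 78.1 and 120 CPM in Hay, a log2 fold change of 1.00 ± 0.026 (edgeR adjusted p = 2.24e-29). RPS27, a zinc-finger protein of the 40S subunit, had 340, 388 and 435 CPM in Grain and 158, 198 and 265 CPM in Hay, a log2 fold change of 0.96 ± 0.015 (edgeR adjusted p = 2.70e-36). For both genes all Grain libraries were above all Hay libraries. RPS29 followed at 0.93, RPS2, at the mRNA entry side of the 40S subunit, at 0.87 and RPS4X at 0.86, and RPS19, the gene most often mutated in human Diamond-Blackfan anaemia, stood at 0.86.

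At the other end, RPL39 and RPL38 were called higher by small margins. RPL39, a very short protein of the exit tunnel, had 280, 320 and 362 CPM in Grain and 256, 277 and 316 CPM in Hay, a log2 fold change of 0.21 ± 0.017 (edgeR adjusted p = 5.27e-14). RPL38, known from mouse for its effect on translation of Hox mRNAs, had 93.5, 106 and 120 CPM in Grain and 81.2, 91.8 and 111 CPM in Hay, a log2 fold change of 0.21 ± 0.025 (edgeR adjusted p = 1.49e-09). The media overlapped for both genes.

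The 5 genes with the most counts over both media, a ranking that is not corrected for transcript length, were RPL4, RPL7, RPL9, RPL5 and RPLP0, and each rose by less than 1.5-fold. RPL4, whose loop reaches into the exit tunnel, had 2508, 2628 and 2817 CPM in Grain and 1762, 1848 and 2011 CPM in Hay, a log2 fold change of 0.50 ± 0.010 (edgeR adjusted p = 3.53e-32). RPL9 rose by 0.57, RPL7 by 0.42 and RPLP0, the anchor of the acidic stalk that recruits elongation factors, by 0.35 on the log2 scale. Across the 78 genes Spearman's rho between the fold change and the mean level was -0.15, against 0.33 over all tested genes, given as a description of genes that share libraries and are not replicates.

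Subsets by role, taken from short hand-made lists that may not be complete, gave like counts. As 76 of the 78 genes were higher, where 37.9% of all tested genes were, these counts show nothing particular to a role. All 4 proteins of the stalk and its base (RPLP0, RPLP1, RPLP2 and RPL12) were higher, with a median log2 fold change of 0.45. All 7 listed exit tunnel genes in the table were higher, with a median of 0.48. The 17 genes of this set that were listed as mutated in human Diamond-Blackfan anaemia were all higher, between 0.27 for RPL27 and 0.93 for RPS29. All 9 tested genes listed for human products that bind MDM2 were higher, with a median of 0.48, RPS27L again except under library totals. Of these, RPL5, which carries 5S rRNA into the 60S subunit, had 1757, 1836 and 1994 CPM in Grain and 1291, 1337 and 1439 CPM in Hay, a log2 fold change of 0.46 ± 0.010 (edgeR adjusted p = 9.98e-32). Its partner RPL11 had 782, 826 and 891 CPM in Grain and 617, 655 and 766 CPM in Hay, a log2 fold change of 0.31 ± 0.015 (edgeR adjusted p = 3.13e-20). For both partners the media did not overlap. RPS27A, which is made as a fusion with ubiquitin, rose by 0.71. RPL17 and RPL26, which belong to 1 or more of these subsets, had no row under these symbols and so were not analysed.

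The secondary paralogs went different ways. RPL7L1, whose human product takes part in 60S assembly, was lower, with 55.9, 63.8 and 72.6 CPM in Grain and 67.6, 74.5 and 87.3 CPM in Hay, a log2 fold change of -0.24 ± 0.017 (edgeR adjusted p = 1.53e-15). RPL26L1, a near copy of RPL26, had 45.6, 51.0 and 55.4 CPM in Grain and 47.4, 50.9 and 59.5 CPM in Hay, with a log2 fold change of -0.03 ± 0.021 (edgeR adjusted p = 0.245). It was called lower at -0.058 with DESeq2 (adjusted p = 0.00881) and with DESeq2 size factors in edgeR (adjusted p = 0.0102), and at -0.15 with library totals. RPS27L, a p53 target in human cells, had 41.0, 47.6 and 58.9 CPM in Grain and 38.7, 43.6 and 52.98 CPM in Hay. Its log2 fold change was 0.09 ± 0.022 (edgeR adjusted p = 0.000283), and with library totals in place of TMM scaling it was -0.03, the opposite sign and not called.

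Ratios of a paralog to its main gene within a library do not depend on scaling. RPL22L1 counts were 47.5% ± 2.75 of RPL22 counts in Grain and 26.9% ± 6.39 in Hay (SD, n = 18 each), with ranges of 42.2% to 51.2% in Grain and 17.6% to 37.3% in Hay. RPS27L counts were 12.4% ± 1.03 of RPS27 counts in Grain and 22.7% ± 2.82 in Hay. RPL7L1 counts were 3.25% ± 0.174 of RPL7 counts in Grain and 5.11% ± 0.294 in Hay. The media did not overlap for any of the 3 pairs, and each difference had p = 1e-05 in a two-sided permutation test over libraries, the smallest that 100000 permutations give, also after adjustment over the 3 pairs. This test was chosen after the fold changes had been seen, and it shuffled libraries without regard to their time point. The ratios are of counts, not of molecules, because transcript lengths differ.

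**Figure D3:**
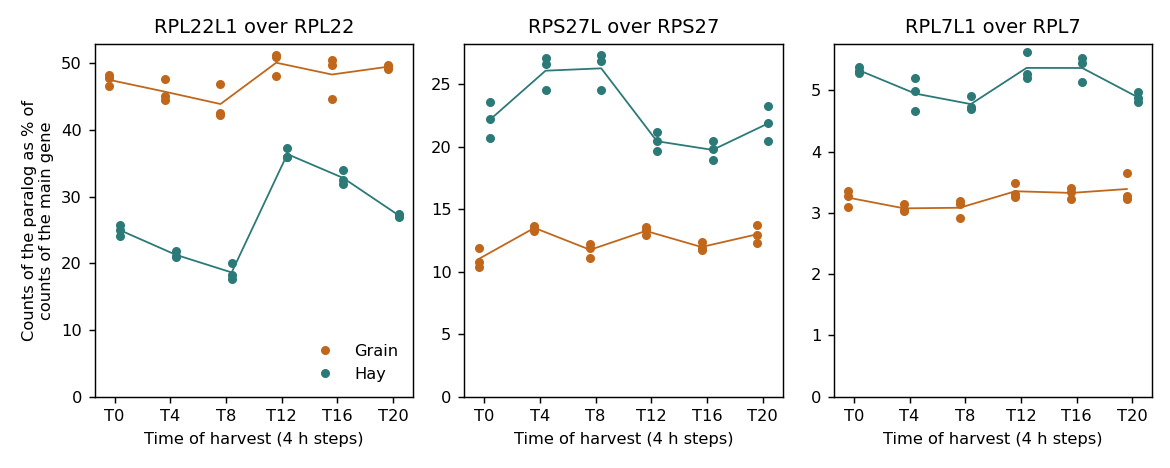
Counts of 3 paralogs as a percentage of the counts of their main gene, per library, against the time of harvest; points are libraries, lines join means of 3, Grain is orange and Hay teal. In Hay, RPL22L1 over RPL22 lay lowest at T8 and highest at T12, while all Grain libraries stayed above 42%.

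The difference between the media held at each time point. In Grain, 76 genes were higher at T0 (31.6% of all tested genes were), 76 at T4 (29.9%), 75 at T8 (29.5%), 74 at T12 (30.7%), 74 at T16 (30.2%) and 75 at T20 (29.7%). RPL7L1 was the gene called lower at every time, where the share of all tested genes called lower was 31.2% at T0, 27.9% at T4, 27.2% at T8, 33.6% at T12, 32.5% at T16 and 29.2% at T20. At all 6 times 74 genes were higher, where 21% of all tested genes were. The median log2 fold change over the set was 0.65 at T0, 0.61 at T4, 0.62 at T8, 0.48 at T12, 0.47 at T16 and 0.50 at T20.

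The size of the difference depended on time for 52 of the 78 genes, by an F test of 5 interaction contrasts in edgeR, where 32.6% of all tested genes were called. In all 52 the fitted difference was larger at T8 than at T12, which together with a called interaction was true of 17.8% of all tested genes; these 2 times were picked after the values had been seen. The ratio of Grain to Hay shares of counts was 1.41 at T0, 1.43 at T4, 1.49 at T8, 1.24 at T12, 1.27 at T16 and 1.31 at T20.

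In the Hay medium most of the set moved together through the sampled day. Relative to each gene's own mean in Hay, the median log2 level was -0.06 at T0, -0.11 at T4, -0.14 at T8, 0.18 at T12, 0.13 at T16 and 0.02 at T20. Of the 78 genes, 70 had their highest mean at T12 and 62 their lowest at T8. The shares of all tested genes with those times were not computed, so these counts have no background. RPL26L1 went another way in Hay, at 0.10 for T8 and -0.02 for T12, and RPL37A stood at 0.02 for T8. Any difference between times was called for 75 genes in Hay (35.2% of all tested genes) by edgeR. In Grain the same medians were 0.03, -0.07, -0.06, 0.11, 0.05 and -0.04 in time order, and 72 genes were called (51.5% of all tested genes). With library totals in place of TMM the Hay course kept its shape, at -0.09 for T8 and 0.10 for T12, while the Grain course turned, at 0.06 for T8 and -0.04 for T12. TMM factors were lowest at T12 in both media, between 0.859 and 0.869 in Grain and between 0.982 and 1.00 in Hay.

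**Figure D4:**
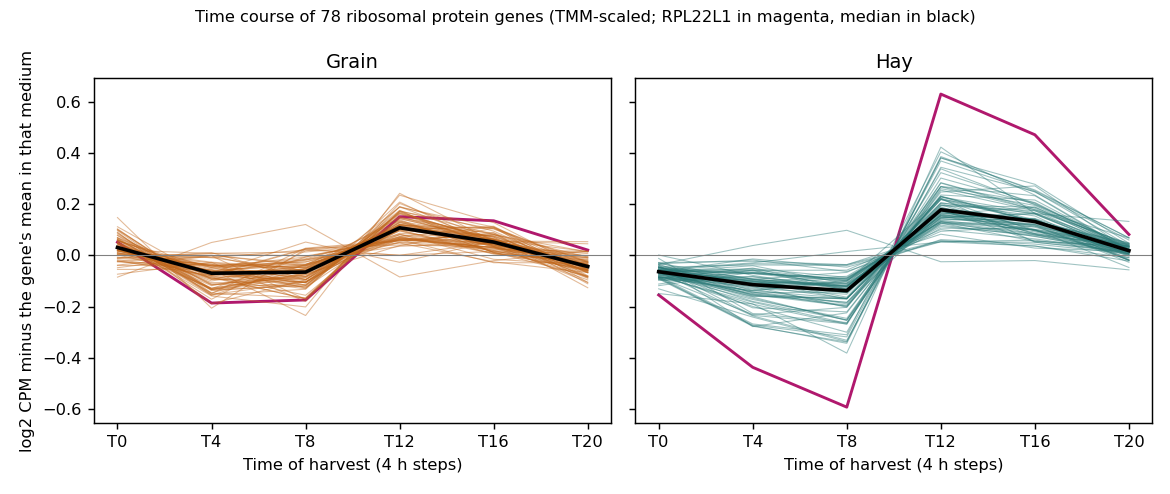
Log2 CPM of each of 78 ribosomal protein genes minus the gene's mean in that medium, against the time of harvest, in Grain (left) and Hay (right); thin lines are genes, black is the median, magenta is RPL22L1. In Hay the median is -0.14 at T8 and 0.18 at T12, and RPL22L1 is -0.59 at T8 and 0.63 at T12; the Grain course turns under scaling by library totals.

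A component of fixed 24 h period was called for 11 genes in Grain (31.8% of all tested genes) and 73 genes in Hay (20.7%) by edgeR. The samples span a single cycle, so this describes the course and does not show that it repeats. In Hay the fitted peaks of the 73 genes lay between 13.98 and 16.05 h after T0, with a median of 15.4 h. Their median amplitude was 0.15 on the log2 scale. The fitted peaks came later than T12, where 70 of the 78 genes had their highest mean. The Grain count depended on the fit: it was 53 with cosine contrasts in the 12-group model (43.7% of all tested genes), 56 with a linear trend added (40.7%) and 30 with DESeq2, so that it lay below the background in the first fit and above it in the fits with 53 and 56. The Hay count was 78 with those contrasts (34.6%) and 64 with the trend (16.8%). When single libraries were left out, the Grain count moved between 4 and 22 and the Hay count between 69 and 75. The 24 h component itself differed between the media for 11 genes, where 11.3% of all tested genes were called, so the members' count was near that background. That count was 6 to 15 when single libraries were left out. It was 60 with library totals only, where no share of all tested genes was computed.

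RPL22L1 had the largest 24 h amplitude of the set in Hay. Its 3 libraries held 145, 138 and 138 CPM at T8 and 167, 173 and 188 CPM at T12 in Grain, and 40.7, 43.8 and 44.4 CPM at T8 and 105, 97.8 and 98.0 CPM at T12 in Hay. No library of T8 reached one of T12 in either medium on this TMM scale; with library totals the same held in Hay, while in Grain the times overlapped, at 145 to 151 CPM for T8 and 144 to 162 CPM for T12. The Grain over Hay log2 fold change was 1.71 ± 0.061 at T8 and 0.81 ± 0.059 at T12 (edgeR interaction adjusted p = 6.03e-11). The 24 h amplitude of RPL22L1 was 0.16 ± 0.060 in Grain and 0.55 ± 0.061 in Hay, and the component differed between the media (edgeR adjusted p = 0.00484).

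RPS27 held 359, 356 and 370 CPM at T8 and 405, 414 and 435 CPM at T12 in Grain, and 159, 163 and 158 CPM at T8 and 265, 257 and 250.3 CPM at T12 in Hay. Its difference was 1.18 ± 0.036 at T8 and 0.70 ± 0.036 at T12 (edgeR interaction adjusted p = 3.89e-10). RPL24, which forms a bridge between the subunits, had another order in Grain, with 669, 676 and 687 CPM at T8 and 615, 642 and 668 CPM at T12, so that all T8 libraries were above all T12 libraries by a small margin. In Hay RPL24 held 392, 396 and 388 CPM at T8 and 512, 492 and 488 CPM at T12, the other way round. With library totals RPL24 kept both orders, and RPS27 in Grain overlapped between the times, at 372 to 391 CPM for T8 and 348 to 376 CPM for T12, so the contrast of RPL24 with RPS27 in Grain rests in part on the scaling. The 24 h amplitude of RPL24 was 0.02 ± 0.025 in Grain and 0.19 ± 0.025 in Hay, with a difference between the media (edgeR adjusted p = 0.0041).

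RPL3, which lies at the peptidyl transferase centre, held 799, 798 and 810 CPM at T8 and 1051, 1078 and 1128 CPM at T12 in Grain, and 423, 436 and 417 CPM at T8 and 726, 680 and 691 CPM at T12 in Hay. It had a called 24 h component in both media, with peaks 15.7 h after T0 in Grain and 15.6 h in Hay. The highest mean of RPL3 was at T12 in both media, before these fitted peaks. RPL4, RPL7, RPLP0, RPL37A and RPL26L1 were the members without a called component in Hay in this fit.

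Other mRNAs of the translation machinery were set beside the ribosomal proteins, from lists chosen with earlier results of these data known. Over all tested genes 37.9% were higher and 43.9% lower in Grain, and of those of at least 30 CPM 58% were higher. Of 20 translation factors and other TOP mRNAs, 19 were higher and 1 was lower in Grain, with a median log2 fold change of 0.67. EEF2, the factor that moves the ribosome along the mRNA, had 3101, 3389 and 3868 CPM in Grain and 1328, 1409 and 1564 CPM in Hay, a log2 fold change of 1.27 ± 0.011 (edgeR adjusted p = 3.50e-44). EEF1A1, which delivers aminoacyl-tRNA, rose by 1.09, the initiation factor EIF4B by 1.15 and the histone chaperone gene NAP1L1 by 1.19 on the log2 scale. The exception was EIF3L at -0.09.

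Of 25 genes of ribosome biogenesis and rRNA synthesis, 18 were higher and 6 lower, with a median of 0.33. NCL, encoding nucleolin, rose by 0.68, NOLC1 by 0.42, GNL3 by 0.62 and NOB1, the nuclease that finishes 18S rRNA, by 0.90, though NOB1 overlaps another annotated gene with more counts. RRS1, needed to bring 5S rRNA into the 60S precursor, was the lowest of the list at -0.72. Of 14 chaperones and importers of ribosomal proteins, 9 were higher and 4 lower, with a median of 0.28. The importin IPO7 had 451, 568 and 714 CPM in Grain and 180, 189 and 208 CPM in Hay, a log2 fold change of 1.58 ± 0.013 (edgeR adjusted p = 1.46e-44), and IPO5 rose by 0.99.

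The lists of regulators showed no common direction. Of 21 genes of mTORC1 and TOP mRNA control, 11 were higher and 10 lower, with a median of 0.05. MYC, a transcription factor known to drive ribosomal genes, had 9.68, 11.4 and 13.0 CPM in Grain and 38.3, 46.2 and 53.8 CPM in Hay, a log2 fold change of -2.00 ± 0.028 (edgeR adjusted p = 2.54e-37). DDIT4, an inhibitor of mTORC1, stood at -1.34, RHEB, an activator of mTORC1, at 0.89, the kinase PIM1 at 1.74 and LARP1, which binds TOP motifs, at -0.30. Of 11 genes of the MDM2-p53 response, 6 were higher and 5 lower, with a median of 0.05. CCNG1 rose by 2.11, PHLDA3 stood at -0.64 and CDKN1A at -0.44. MDM2 had 45.1, 51.7 and 57.9 CPM in Grain and 47.5, 50.0 and 52.6 CPM in Hay, a log2 fold change of 0.05 (edgeR adjusted p = 0.00566) whose call was lost with DESeq2 (adjusted p = 0.282), with DESeq2 size factors (0.269) and without the T12 libraries (0.242), and whose value was -0.07 with library totals. Of 14 ribosome quality control genes, 7 were higher and 5 lower, with a median of 0.06. ZNF598, which marks collided ribosomes, rose by 1.33, and the stress kinase gene MAP3K20 stood at -0.49. With library totals all log2 values shifted by about -0.12, more than the medians of these last 3 lists.

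Mitochondrial ribosomal protein genes, which serve the separate ribosome of the mitochondrion, were more mixed than the cytosolic set. Of 74 tested, 45 were higher, 20 lower and 9 not called, with a median of 0.19. Among all tested genes 37.9% were higher and 43.9% lower. MRPL9 rose by 1.12 and MRPS9 by 0.88, while MRPS21 stood at -0.98. All 13 mitochondrially encoded mRNAs were lower, with a median of -1.61, between -0.95 for COX1 and -3.77 for ND3.

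**Figure D5:**
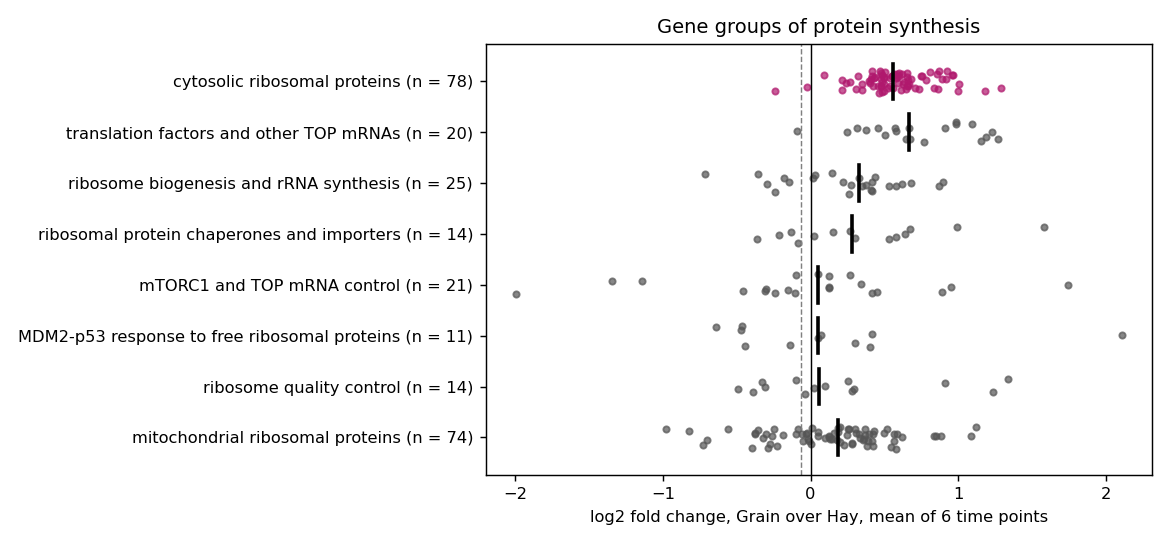
Log2 fold change, Grain over Hay, averaged over 6 time points, for genes of 8 groups of protein synthesis; each point is a gene, thick bars are medians, the dashed line is the median of all tested genes at -0.07. The median is 0.56 for ribosomal proteins, 0.67 for translation factors and other TOP mRNAs and 0.19 for mitochondrial ribosomal proteins.

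Ribosomal protein genes have many processed pseudogenes, and how reads with several matches were counted was not stated in any source at hand, so near-identical copies such as RPL26L1 are uncertain. The kit does not keep strand, and 13 of the 80 genes overlap another annotated gene, among them RPL22L1, RPL7L1, RPL9, RPS9, RPS25 and RPSA. NAP1L1, EIF3L, NOB1, LARP1, ZNF598, MRPL9 and COX1 overlap one too, and reads of the overlap cannot be told apart. Of the 13, 12 were higher in Grain with a median of 0.56, and of the 65 tested genes without such an overlap 64 were higher with a median of 0.55. A further feature, a small RNA gene within the locus, was held by 27 genes, all higher in Grain, with a median of 0.54.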

How the data were processed

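RNA of 36 libraries was extracted with TRNzol, prepared with the TruSeq RNA v2 kit and sequenced paired-end, per the labels' protocols. Per the submitters' processing notes, the tools were HISAT2 2.2.1, StringTie 2.1.5 and SAMtools 1.20. The genome build, and which of these tools produced the table, are not given here. The deposited file has whole-number read counts per gene and library, made by the authors without normalisation. Symbols were matched to the RefSeq gene table of ARS-UI_Ramb_v3.0, used only for names and overlaps.

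Groups came from the labels. Genes were filtered with filterByExpr (minimum count 10, minimum total 15, 12 groups) and scaled by TMM. A model with a mean per medium and time was fitted over all 22488 genes with edgeR 4.0.16 (limma 3.58.1, R 4.3.3); quasi-likelihood tests, two-sided, were adjusted by Benjamini-Hochberg over all genes. Robust dispersion estimates were tried first and replaced by the default, to follow an earlier processing of this series. A separate model held a cosine and sine of 24 h period per medium. Alternatives were DESeq2 1.42.0 (likelihood ratio and Wald tests), other scalings, no filter, each library left out, a replicate block, each time point alone and other cosine fits.

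The members and lists were chosen with earlier results of these data known. Genes named are the 5 largest and 5 smallest fold changes, the 5 with the most CPM, the smallest p of the interaction and 24 h tests, all paralogs, RPL5 and RPL11, and up to 4 per other list with MYC, DDIT4, LARP1, MDM2 and CDKN1A; EIF3L, RRS1, COX1, CD3E, CDH5 and members given with a fold change alone were added after their values were seen. The procedure was tested on simulated counts with known changes. A first draw over all tested genes missed some changes in genes of low counts. A second draw took genes of at least 30 CPM, the range of all 78 tested members. In it, false calls made up 5.66% of calls for the mean comparison and 2.51% to 6.34% at single time points. Changes of 1.2-fold were recovered for 100% of genes in the mean comparison and for 91% to 94% at single time points. For a 24 h amplitude of 0.1 (log2) put into Hay alone, 19.4% were recovered by the interaction and 40.3% by the 24 h difference. At an amplitude of 0.2 these were 95.5% and 97%. The second draw changed 66 or 67 genes per size of effect, with no broad shift between the media, so the choice of scaling was not tested.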

Additional observations from a re-analysis of the deposited data

Results flagged for a closer look

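The effect of the medium differed between time points by the edgeR F test of the interaction for 52 of the 78 ribosomal protein genes, where 32.6% of all tested genes were called. Among the named genes the adjusted p was 6.03e-11 for RPL22L1, 3.89e-10 for RPS27, 3.71e-08 for RPL10A, 1.09e-07 for RPS2, 1.57e-07 for RPL28 and 2.98e-07 for RPL3. It was 7.21e-07 for RPL24, 9.74e-07 for RPL13A, 9.7e-06 for RPL10, 1.03e-05 for RPS25, 1.81e-05 for RPS27A, 0.000204 for RPS9 and 0.00834 for RPL9 in the same edgeR test.

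The 24 h component differed between the media for 11 of the 78 genes, where 11.3% of all tested genes were called, and this count ran from 6 to 60 over the alternatives. Its adjusted p in edgeR was 0.0041 for RPL24, 0.00484 for RPL22L1, 0.0156 for RPS27, 0.0168 for RPS25, 0.0202 for RPL28, 0.0256 for RPS27A and 0.0432 for RPL10A. With TMM scaling the fitted amplitude was larger in Hay for 77 of the 78 genes. The share of all tested genes with a larger amplitude in Hay was not computed.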

How the results depend on the processing

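Of the counts of genes higher in Grain, none moved by over 1.5 times under any alternative run. Leaving out each library in turn gave 76 genes higher in the mean comparison throughout, 40 to 65 for the interaction, 64 to 73 for any time difference in Grain and 75 to 76 in Hay. The count of genes lower in Grain was 2 with DESeq2, with DESeq2 size factors in edgeR and with library totals, both for the mean and for T0, and 0 with a minimum fold of 1.2; with library totals it was 3 at T12 and 2 at T16, and without Grain T20 replicate 3 it was 0 at T20. The 24 h component in Grain was called for 30 genes with DESeq2, 20 with DESeq2 size factors and 18 with library totals. Those 18 had fitted peaks 3.75 to 6.11 h after T0, against 13.9 to 17.3 h for the genes called in the main fit. The component in Grain was called for 17 with TMM factors taken without the ribosomal protein genes and 17 without the 6 T12 libraries. It was called for 53 with cosine contrasts in the 12-group model and 56 with a linear trend added. It was called for 22 without Grain T0 replicate 1, 17 without Grain T0 replicate 3 and 6 without Grain T16 replicate 1. It was called for 5 without Grain T4 replicate 2 and 4 without Grain T4 replicate 1. It was called for 7 without Grain T8 replicate 1 or 3, T12 replicate 2 or 3, T16 replicate 2 or 3, or T4 replicate 3. The difference of that component between the media was called for 6 genes with DESeq2 size factors, 60 with library totals, 7 with TMM without ribosomal protein genes, 6 without the filter and 20 without the T12 libraries. It was 6 without Grain T12 replicate 1 or Hay T16 replicate 3, 7 without Grain T12 replicate 2 or Grain T20 replicate 2, and at most 15. The cause of these moves was not tested. Apart from the fits with 53 and 56 genes, the share of all tested genes was not computed for them. Leaving out T12 and the robust estimates were chosen after seeing the data; robust estimates gave 76 genes higher, 60 for the interaction and 13 for the difference in 24 h component. The share of counts was 5.93% in Grain and 4.43% in Hay without mitochondrial mRNAs and FN1, 4.37% in Grain and 3.22% in Hay without members that overlap another gene, and 5.42% to 5.46% in Grain and 3.99% to 4.03% in Hay when single libraries were left out. With library totals RPS27L stood at -0.0278, MDM2 at -0.0679 and VWF at -0.0582 on the log2 scale, each the reverse of its sign with TMM.

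The replicate numbers did not pair the samples: deviations of same-numbered libraries correlated between -0.05 and 0.07. With the replicate block, 76 genes were higher and 1 lower in the mean comparison, 54 were called for the interaction, 9 and 73 for the 24 h component in Grain and Hay, and 10 for its difference.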
